A study of Homo sapiens with 18 samples.

Results

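The comparison described here is DRIP–seq of A3B KO cells against DRIP–seq of WT cells after 6 h of PMA, which is 2 of the 18 samples of the series (9 immunoprecipitations and their inputs). Its members were taken by sample label: the peak list of A3B KO at PMA 6 h, with 169126 regions, and the peak list of WT at the same time, with 165877 regions, of 774635 regions in the 9 peak lists. Promoters and gene bodies were then ranked within each list. Both samples are MCF10A cells, a non-transformed human breast epithelial line with basal features, given PMA at 25 ng/ml for 6 h. The WT cells are the parental line. The A3B KO cells are 1 single-cell clone, selected with puromycin after lentiviral CRISPR with a guide that matches both APOBEC3A and APOBEC3B, and its deletion runs between those 2 genes. Each condition is 1 library made from pooled S9.6 immunoprecipitations, so clone, library and genotype cannot be told apart, no value has a replicate error, and no test between the lines was possible. The DMSO and PMA 2 h pairs of the same lines, again 1 library each, are given beside the 6 h values. For overlaps, anti-GFP ChIP–seq lists of another MCF10A line, which makes an A3B-eGFP fusion under doxycycline at 1 µg/ml, are also used. They cover DMSO without and with doxycycline, and PMA at 25 ng/ml for 2 h with it, again 1 library each.

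R-loops are structures in which nascent RNA stays paired with its DNA template and leaves the other DNA strand single, and they form most readily at transcribed, GC-rich starts of genes. DRIP–seq recovers them with the S9.6 antibody, which binds RNA/DNA hybrids. A3B (APOBEC3B) is a nuclear enzyme that deaminates cytosines in single-stranded DNA, preferring a thymine before the cytosine, and PMA activates protein kinase C, which turns on immediate early and NF-κB target genes, A3B among them. The question of this comparison is which genes differ in R-loop signal between cells with and without A3B once the early response to PMA has passed.

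The targeted gene was checked first. Between the end of APOBEC3A and the end of APOBEC3B (chromosome 22 of hg38, 38963184 to 38992804) the WT lists held 4 regions in DMSO, 5 at 2 h and 10 at 6 h. The A3B KO lists held 0, 0 and 0. The gap therefore matches the labels at all 3 times. The 6 h lists had 2 regions in the APOBEC3B gene itself in WT and 0 in A3B KO, 1 and 1 in APOBEC3A, 1 and 4 in APOBEC3C, 2 and 1 in APOBEC3D, and 7 and 8 in APOBEC3F.

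The value read for each region is its fold enrichment, the ratio of the summit to its local background as the authors' peak caller gave it. The median fold at 6 h was 5.26 in WT and 4.64 in A3B KO, with a median pileup of 29 and 30 fragments at the summit. The number of reads behind a list is unknown, and both fold and list length can depend on it. WT had 9510 regions with a fold of at least 10 and A3B KO had 4479, whereas at 2 h there were 2505 and 4315 and in DMSO 1695 and 1690. For this reason genes were compared by rank within a list. The promoter value of a gene was the highest fold among summits within 2 kb of its most 5′ start, and the log2 rank ratio is the log2 of the WT rank over the A3B KO rank, so that 1 means a place that is 2 times nearer the top in A3B KO. A ratio of 1 thus spans few places near the top of a list and many lower down. Shares past 1 over all ranked genes are therefore not a like background for genes near the top. Of the cell type markers, a promoter region was listed for 11 of 18 basal genes in WT and for 10 in A3B KO, against 8 and 6 of 15 luminal genes, 5 and 4 of 12 mesenchymal genes and 8 and 8 of 24 genes of other tissues. Over all protein-coding genes a promoter region was listed for 7693 of 19960 in WT and for 7638 in A3B KO. Of the 18 basal genes 9 were in both lists, KRT5, KRT14 and ITGB4 among them.

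Sequences of the promoter windows that carry the main differences were read from hg38 as 300 bases around the summit, on the strand of the gene, 5′ to 3′. The capitals mark TCA and TCT, the trinucleotides that A3B is known to prefer. BTG1, an antiproliferative immediate early gene, and ZEB1, a transcription factor gene, stood higher in A3B KO. AREG, which encodes the EGF receptor ligand amphiregulin, stood lower. The BTG1 window (chr12:92145091-92145390, minus strand) overlaps a coding exon, the ZEB1 window (chr10:31318509-31318808, plus strand) an exon of a noncoding transcript inside the gene, and the AREG window (chr4:74445399-74445698, plus strand) a coding exon.
BTG1: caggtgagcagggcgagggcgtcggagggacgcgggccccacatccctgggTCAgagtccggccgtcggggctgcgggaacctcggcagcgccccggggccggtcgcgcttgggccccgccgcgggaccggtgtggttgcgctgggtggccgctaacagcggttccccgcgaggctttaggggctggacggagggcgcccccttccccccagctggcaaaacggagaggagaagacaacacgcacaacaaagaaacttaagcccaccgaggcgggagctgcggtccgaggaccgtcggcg
ZEB1: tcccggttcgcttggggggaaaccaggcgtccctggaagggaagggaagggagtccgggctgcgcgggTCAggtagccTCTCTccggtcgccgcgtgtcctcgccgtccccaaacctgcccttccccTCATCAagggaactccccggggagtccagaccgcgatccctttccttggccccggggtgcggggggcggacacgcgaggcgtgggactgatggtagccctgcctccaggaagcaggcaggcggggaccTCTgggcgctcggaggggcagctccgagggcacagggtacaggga
AREG: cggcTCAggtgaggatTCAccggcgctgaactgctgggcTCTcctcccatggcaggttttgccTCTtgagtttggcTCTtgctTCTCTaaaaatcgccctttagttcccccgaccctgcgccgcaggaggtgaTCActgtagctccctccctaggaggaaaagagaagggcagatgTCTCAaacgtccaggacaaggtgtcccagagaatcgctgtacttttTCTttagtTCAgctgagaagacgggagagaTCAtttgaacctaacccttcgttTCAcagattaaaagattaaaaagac
BTG1 had a GC content of 72% and 1 capital trinucleotide, ZEB1 70.3% and 6, and AREG 50.7% and 14. Of all 300-base windows around WT summits at 6 h, 99.5% held at least 1 TCA or TCT on the forward strand, with a median of 10 in a window.

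Several promoters that stood lower in A3B KO had their summit in sequence of Alu, the most abundant short repeat of primates. Such sequence was recognized by the words TAATCCCAGCACTTTG and CCCAGGCTGGAGTGCA or their reverse complements. Among 16-base words that hold every base, these are the most frequent nonoverlapping ones on the forward strand of chromosome 22. There they occur 4431 and 3961 times, with reverse complements not counted. In the genome, 10.7% of all 500-base tiles held at least 1, and of the 500-base regions at 6 h 41.1% did in WT and 39.1% in A3B KO.

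At promoters, A3B KO ranked most immediate early genes and several chemokine and cytokine genes higher than WT. It ranked AREG, EGFR and several genes with Alu summits lower. A promoter region was found for 7693 of 19960 protein-coding genes in WT and 7638 in A3B KO, and 6160 genes had one in both lists and were ranked. Of these, 746 stood higher in A3B KO by a log2 rank ratio of at least 1 (12.1% of those ranked) and 733 stood lower by as much (11.9%). The ranks had a Spearman correlation of 0.68 across the 6160 genes, which share their libraries and are not independent. Counts of the same kind were 643 and 625 of 5698 genes in DMSO and 613 and 606 of 5310 at 2 h, so the number of displaced promoters was of a similar size at every time. Promoters present in 1 list alone numbered 1533 in WT and 1478 in A3B KO.

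**Figure D1:**
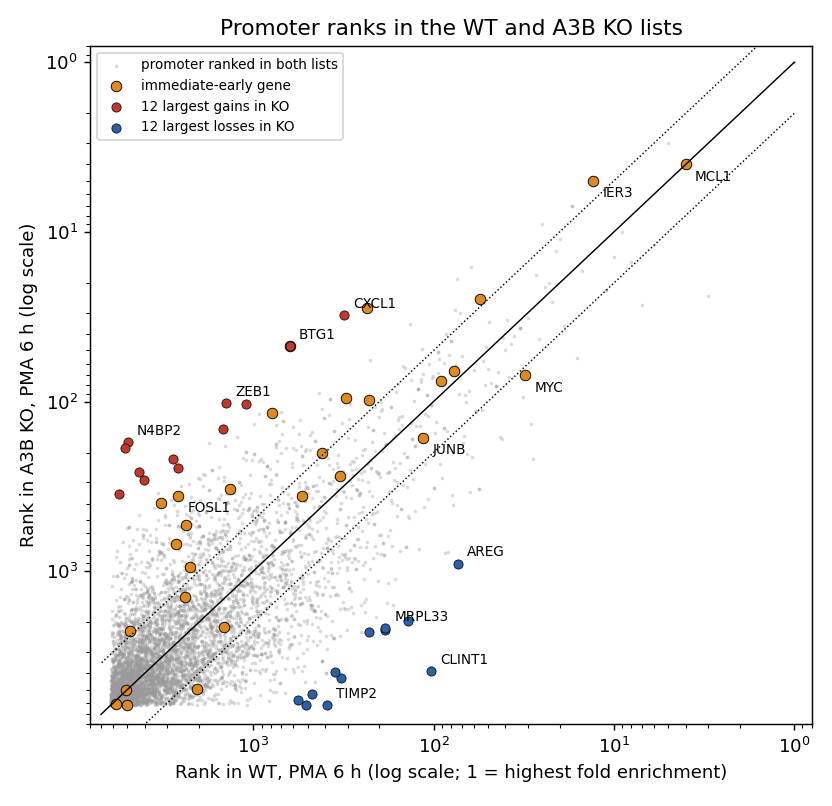
Rank of 6160 promoters in WT (x axis) and A3B KO (y axis) after 6 h of PMA, both on log scales with rank 1 at the top right; each gray point is a gene, orange points are immediate early genes, red and blue points the 12 largest gains and losses. The solid line marks equal rank and the dotted lines a log2 rank ratio of 1 and −1. Beyond the upper dotted line lie 15 of 28 immediate early genes and beyond the lower one 2. The shares of all ranked promoters, which cover every rank, are 12.1% and 11.9%.

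The largest promoter gain was at N4BP2, a gene of a BCL3-binding protein with nuclease activity. Its strongest summit had a fold of 3.93 in WT and 15.46 in A3B KO and went from rank 4959 to 173 (log2 rank ratio 4.84). JMJD8 followed, with folds of 3.77 and 14.83 and ranks of 5128 and 187 (4.78). In both genes the summits lay apart in the 2 lists, at 287 bp and −595 bp from the start for N4BP2 and at 1028 bp and 1952 bp for JMJD8. The zinc finger gene ZNF862 had its summit at 286 bp and 317 bp and folds of 4.56 and 13.01 (4.04). ARID2, which encodes a subunit of the PBAF chromatin remodeler, had folds of 3.32 and 11.93 (3.97), and within 1 kb of the start its ratio was 0.22. Its summits lay apart, at −488 bp in WT and 1044 bp in A3B KO.

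ZEB1, a repressor of epithelial genes, had a fold of 8.15 in WT and 19.80 in A3B KO at the same place, 160 and 166 bp from the start, and moved from rank 1410 to 102 (3.79). It had also been higher in A3B KO in DMSO (1.09) and at 2 h (2.18). By pileup its ratio was 0.50. ACTR3, which encodes an actin-related protein of the Arp2/3 complex, had folds of 4.84 and 12.63 (3.79) and was likewise higher in DMSO (1.73) and at 2 h (1.62). BTG1 had folds of 10.36 and 27.13 and ranks of 626 and 47 (3.74), against 0.08 in DMSO and 2.33 at 2 h. CXCL1, a chemokine that attracts neutrophils, had folds of 12.46 and 35.66 and ranks of 313 and 31 (3.34), with 2.65 in DMSO and 4.61 at 2 h. Both CXCL1 summits lay within the same 3 bp. The other gains were at CCDC85B (3.68), TMSB4X, which encodes the actin-binding peptide thymosin beta 4 (3.40), the chromatin gene BICRAL (3.35) and the unnamed gene ENSG00000285854 (3.42). The CCDC85B summits lay apart, at 146 bp from the start in WT and 1137 bp in A3B KO.

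The largest loss was at CLINT1, a clathrin adaptor gene, with a fold of 18.54 in WT and 4.64 in A3B KO and ranks of 103 and 3890 (−5.24). The WT summit lay at −1623 bp from the start and the A3B KO summit at 246 bp, and within 1 kb of the start the ratio was 0.73, so the direction turned. TIMP2, which encodes an inhibitor of metalloproteases, had folds of 11.73 and 2.13 (−3.98) with summits at −1491 bp and 1205 bp from the start. AREG was lower at an unchanged summit, at 409 bp in WT and 415 bp in A3B KO. Its fold was 20.84 in WT and 8.71 in A3B KO, and its rank went from 73 to 902 (−3.63), whereas the ratio was −0.09 in DMSO and 1.94 at 2 h.

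MRPL33, a gene of the mitochondrial ribosome, had folds of 14.96 and 6.35 (−3.56) at 150 bp and 140 bp. TRIM11, a ubiquitin ligase gene, had folds of 10.72 and 2.87 (−3.35) and had been lower at 2 h as well (−2.98). The TRIM11 summits lay apart at 6 h, at −13 bp from the start in WT and 975 bp in A3B KO. ATP5F1A, a gene of ATP synthase that shares its summit with HAUS1, had folds of 12.25 and 4.31 (−3.71), and TM9SF2, a gene of the endosomal and Golgi membranes, folds of 13.97 and 6.2 (−3.34, after −1.97 at 2 h). The remaining losses were SSU72L4 (−3.83), CYP2F1 (−3.58), SPDYE13 (−3.57), ENSG00000257411 with PA2G4 at the same summit (−3.49) and ZNF121 (−3.47). WT and A3B KO summits lay apart at CYP2F1 (−1341 bp and −324 bp) and at ZNF121 (1118 bp and 1584 bp).

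The immediate early genes respond to growth signals within minutes and need no new protein for it. Their promoters stood higher in A3B KO as a group. Of 38 members, 29 had a promoter region in each list and 28 were ranked. Of these 21 were higher and 6 lower. By at least 1, 15 were higher and 2 lower, against 12.1% and 11.9% of all ranked promoters. Their median ranks at 6 h lay toward the top, at 492 in WT and 231 in A3B KO among 3683 promoters ranked at all times. A ratio of 1 spans fewer places there, and no share over promoters of like rank was taken. The median log2 rank ratio was 1.08, against 0 for all 6160 promoters. The median was 0.38 with promoters of 1 kb and 0.71 by pileup. The medians in the other pairs were 0.53 in DMSO (21 of 27 higher) and 0.49 at 2 h (21 of 28 higher). Over gene bodies 9 of 14 ranked members were higher and 5 lower at 6 h, with a median of 0.33. There 4 were higher by at least 1 and 1 lower by as much, against 14% and 14% of all ranked bodies.

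BTG1 led the group. The RNA-destabilizing zinc finger genes ZFP36L1 and ZFP36 followed. ZFP36L1 had folds of 13.75 and 36.30 and ranks of 234 and 28 (3.06), and ZFP36 folds of 9.71 and 18.65 and ranks of 792 and 117 (2.76). Among the AP-1 genes, FOSL2 had folds of 5.63 and 11.46 (3.02), FOSL1 6.37 and 11.90 (2.86), JUND 6.68 and 10.17 (2.14) and JUN 8.26 and 12.23 (2.05). FOS was nearly level, with folds of 12.24 and 12.83 (0.26). JUNB, a PMA-responsive gene that the study assayed by DRIP–qPCR in both lines, was lower, with 18.19 and 15.66 (−0.52). The AP-1 genes thus did not move as 1 block.

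Other members past 1 were GADD45B (1.95), NR4A2 (1.69), IER3 (1.38), EGR1 (1.25), KLF6 (1.22), PHLDA1 (1.14), ID3 (1.11) and IER5 (1.05). IER3, a survival gene, held one of the strongest promoters of both lists, with a fold of 43.86 and rank 13 in WT and a fold of 56.93 and rank 5 in A3B KO. MCL1, another survival gene, had rank 4 in both, with folds of 61.84 and 74.40. The 2 members lower by more than 1 were IER2 (7.15 and 3.75, −1.28) and MYC (29.98 and 23.63, −1.18). Over gene bodies IER2 was at 0.84 and MYC at 0.22. MYC encodes a growth-promoting transcription factor.

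The same list was followed through the 6 libraries over the 3683 promoters that were ranked in all of them. The median rank of the 26 immediate early genes among these was 558 in WT in DMSO, 251 at 2 h and 492 at 6 h. In A3B KO it was 408, 128 and 231. The WT median at 6 h was thus close to its DMSO value, while the A3B KO median at 6 h lay between its 2 h and DMSO values and above every WT value. Both lines had their highest median at 2 h.

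Several measured features went with the immediate early promoters. The median GC content of their summit windows was 64.2%, against 53.2% over all ranked promoters. In 5 classes of all ranked promoters from the lowest to the highest GC content, the median ratio was 0.04, −0.1, −0.05, 0.01 and 0.07, so it did not follow GC content steadily. In the highest class 16% were higher in A3B KO by at least 1 and 7.28% lower, and in the lowest 11.4% and 10.9%. The part of GC content in the immediate early values was not tested. The summits lay within 250 bp of each other in both lists for 24 of the 28 (85.7%, against 76.3% of all ranked promoters), and those had a median of 1.08. In another MCF10A line, which makes an A3B-eGFP fusion under doxycycline, an anti-GFP ChIP–seq region was in the promoter of 42.9% of the 28 genes in DMSO (95% Wilson interval 26.5 to 60.9) and 46.4% after 2 h of PMA (29.5 to 64.2), against 11.3% and 8.99% of all ranked promoters. These intervals and those that follow cover counting error only. Without doxycycline the shares were 3.57% and 1.7%.

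Several chemokine and cytokine genes also had large gains. Of 23 members 12 were ranked, 7 were higher and 5 lower, and the median was 1.00 (1.74 in DMSO and 1.57 at 2 h). By at least 1, 6 were higher and 1 lower, against 12.1% and 11.9% of all ranked promoters. Beside CXCL1, IL1A, which encodes the alarmin interleukin 1 alpha, had folds of 3.60 and 9.52 (2.98), CSF3, which encodes the growth factor G-CSF, 7.0 and 11.59 (2.48) and CXCL2 9.31 and 14.09 (2.05). CXCL3 had folds of 4.96 and 6.77 (1.05) and IL18 5.29 and 6.97 (1.04). CXCL1, CXCL2 and CXCL3 are neighbours on chromosome 4. Of the 5 lower members the adhesion gene ICAM1 was the one past 1, with folds of 11.21 and 4.09 (−3.32), but at summits −1998 bp and 1367 bp from its start.

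Of 16 genes of the NF-κB pathway, 10 had a promoter region in the A3B KO list and 6 in the WT list, against 7638 and 7693 of all 19960 genes. NFKB2, REL and RELB, which encode NF-κB subunits, and the feedback genes TNFAIP3 and TNIP1 were listed in A3B KO alone, at folds of 4.03, 3.12, 3.96, 4.88 and 3.88, and BCL3 in WT alone at 3.26. These folds are low, and a list holds no value for a promoter below the peak threshold. Of the 5 ranked, BIRC3, a gene of an apoptosis inhibitor, had folds of 8.09 and 15.23 (2.98) and NFKB1 2.97 and 8.96 (2.82), the latter at summits −408 bp and 737 bp from the start. NFKBIA, which encodes the inhibitor IκBα, had 17.86 and 23.22 (0.66).

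Of 14 EGF receptor signaling genes 5 were ranked, 2 higher and 3 lower, with a median of −1.35. The median was −0.19 by pileup and −0.27 with promoters of 1 kb. Beside AREG, EGFR itself had folds of 8.98 and 4.98 (−1.79) at one summit, 606 and 605 bp from the start. The sheddase gene ADAM17 had 6.98 and 3.18 (−1.35) at different summits. The ligand gene TGFA stood higher, with 9.21 and 18.21 (2.97), and HBEGF had 6.43 and 6.51 (0.31). In the other pairs the median of the group was 0.21 in DMSO and 1.89 at 2 h. Genes that feed back on MAP kinases were split, 6 higher and 5 lower of 11, with SPRY2 at 1.47, SPRY1 at −1.91, ERRFI1 at −1.05 and DUSP6 at −0.73. DUSP1, the phosphatase gene that the study assayed by DRIP–qPCR, had folds of 27.21 and 33.72 and ranks of 39 and 33 (0.24).

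**Figure D2:**
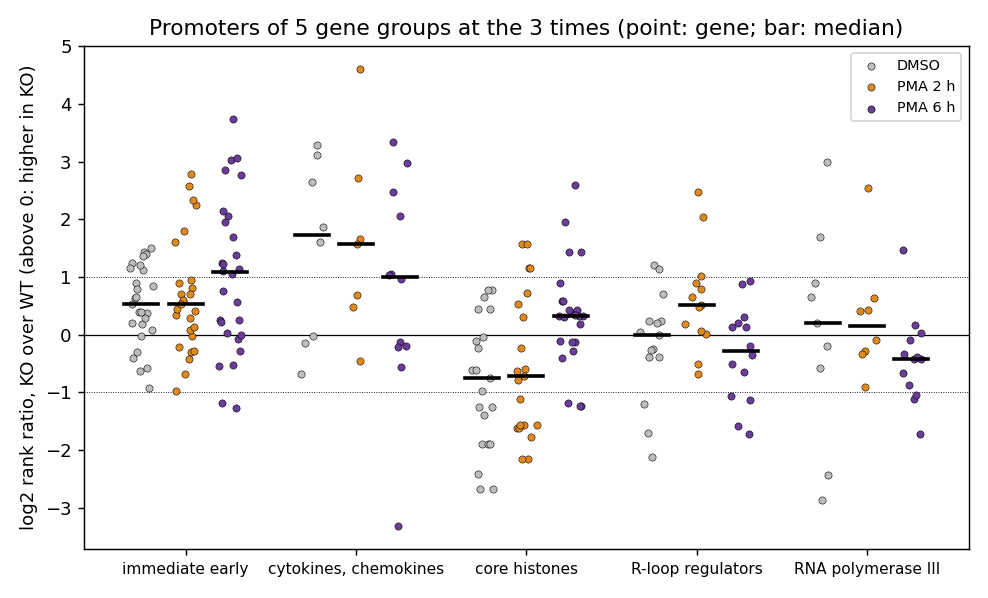
Log2 rank ratio of A3B KO over WT (y axis) for promoters of 5 gene groups in DMSO (gray), PMA 2 h (orange) and PMA 6 h (purple); each point is a gene and each bar the median, and dotted lines mark 1 and −1. Immediate early genes had a median of 1.08 at 6 h, and core histone genes went from −0.69 in DMSO and −0.71 at 2 h to 0.33.

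Replication-dependent core histone genes, which supply nucleosomes in S phase, were higher for 16 of 24 ranked members, with a median of 0.33, after −0.69 in DMSO and −0.71 at 2 h. By pileup 50% were higher and the median was 0.07, and by −log10 q it was 0.09. The largest values were at H3C15 (6.91 and 11.78, 2.59), H4C14 (5.75 and 9.0, 1.96) and H2AC12 and H2BC12, which share a summit (5.85 and 8.07, 1.43). H2AC6 and H2BC4, which share another, were lower (8.90 and 6.05, −1.23). Many histone genes are near-identical copies, so the placement of reads among them is uncertain. All 4 ranked linker histone genes were higher, from H1-2 with folds of 21.09 and 35.81 (1.24) to H1-5 with 12.37 and 12.74 (0.18).

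Genes of factors that resolve or prevent R-loops had 0 of 14 ranked members higher by at least 1 and 4 lower, against 12.1% and 11.9% of all ranked promoters. RNASEH2A, the catalytic subunit of RNase H2, had folds of 9.15 and 5.33 (−1.73), and the helicase genes DDX21 and DHX9 had 17.15 and 12.72 (−1.14) and 8.82 and 6.18 (−1.07). The median was −0.28, after −0.01 in DMSO and 0.51 at 2 h, and it was 0.02 by pileup. Of the 19 members listed in WT, 5 were in WT alone (AQR, DDX39B, DDX41, XRN2 and SAMHD1), against 1533 of 7693 over all genes. RNASEH1 and SMARCA4 stood higher by less than 1 (0.87 and 0.93). Over gene bodies 13 of 23 ranked members were higher and 10 lower, with a median of 0.15. There 7 were higher by at least 1 and 3 lower by as much, against 14% and 14% of all ranked bodies. A promoter region says nothing of the amount of the protein.

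Subunits and factors of RNA polymerase III, which transcribes transfer RNAs, were lower for 10 of 13 ranked members, with a median of −0.42 (0.20 in DMSO and 0.15 at 2 h). By pileup 46.2% were higher and the median was −0.01. Past 1 were POLR3D (11.52 and 7.57, −1.72), POLR3GL (−1.12) and GTF3C3 (−1.04). POLR3E was the exception, with folds of 34.76 and 53.01 and ranks of 25 and 9 (1.47). Genes of the actin cytoskeleton and adhesion went both ways, 11 higher and 11 lower of 22, from TMSB4X (3.40) and PDLIM7 (3.12 and 9.17, 2.90) to TNS4 (13.36 and 7.19, −2.65) and CAV1 (10.38 and 5.77, −2.13).

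Some promoters near the top of the WT list stood lower in A3B KO, and the ones given here were chosen after their values were seen. HSPA8, which encodes a constitutive HSP70 chaperone, had a fold of 62.10 and rank 3 in WT and a fold of 39.90 and rank 24 in A3B KO (−3.00). GAPDH, a glycolytic enzyme gene, had 51.56 and 38.21 and ranks of 7 and 27 (−1.95). The study treated HSPA8 and GAPDH as PMA-nonresponsive genes and assayed them by DRIP–qPCR in both lines. PPIA, a gene of a peptidyl-prolyl isomerase, had 42.19 and 26.06 (−1.78). EIF4A1, an RNA helicase gene of translation initiation, had 31.76 and 14.09 (−2.95). As groups, housekeeping, heat shock, translation factor and glycolysis genes had medians of −0.08, −0.04, 0.08 and −0.28. Of the amino acid response genes, ATF4 had 20.71 and 40.73 (1.96) and the transporter gene SLC7A5 19.91 and 9.15 (−3.22).

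The other groups are given by their medians. Cytosolic ribosomal protein promoters had a median of 0.09 over 63 members, mitochondrial ribosomal protein promoters −0.03 over 40, nuclear oxidative phosphorylation genes −0.15 over 43, proteasome genes −0.01 over 20, olfactory receptor genes 0.01 over 33 and zinc finger genes of chromosome 19 −0.10 over 73. Amino acid response genes had −0.59 over 8, with 2 higher and 6 lower, epidermal differentiation genes −0.39 over 9 and laminin and hemidesmosome genes −0.28 over 6. Basal markers had a median of −0.32 over 9 and luminal markers −0.74 over 6. The 4 mesenchymal markers had 1.81 at promoters, after −1.93 in DMSO, with ZEB1 and the vimentin gene VIM (7.17 and 12.75, 2.85, after −4.12 in DMSO) past 1. Over gene bodies the same list went the other way, with 2 higher and 7 lower of 9 and a median of −0.64. The 6 genes of other tissues had −0.19.

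Gene bodies were read from 2 kb inside the start to the end of the gene, for 17742 protein-coding genes of at least 4 kb. Of these 12790 had a region in both lists. In A3B KO 1787 stood higher by at least 1 (14%) and 1789 lower (14%), with a Spearman correlation of 0.67 across genes. The largest gain was at NKD1, an inhibitor gene of Wnt signaling (8.46). Its fold was 7.57 at rank 7395 in WT and 31.28 at rank 21 in A3B KO. The NKD1 summits lay apart in the 2 lists, at 10474 bp and 41327 bp from the start. TNFAIP3, which encodes the NF-κB inhibitor A20, had its strongest summit in an intron, at 2139 bp in WT and 2129 bp in A3B KO, just beyond the promoter window. Its fold went from 8.90 to 19.91 and its rank from 4896 to 51 (6.58), much as at 2 h, when folds were 4.72 and 17.61 (6.47). The window around this summit (chr6:137869199-137869498, plus strand) holds a run of a 4-base repeat, and TCA and TCT are in capitals.
TNFAIP3: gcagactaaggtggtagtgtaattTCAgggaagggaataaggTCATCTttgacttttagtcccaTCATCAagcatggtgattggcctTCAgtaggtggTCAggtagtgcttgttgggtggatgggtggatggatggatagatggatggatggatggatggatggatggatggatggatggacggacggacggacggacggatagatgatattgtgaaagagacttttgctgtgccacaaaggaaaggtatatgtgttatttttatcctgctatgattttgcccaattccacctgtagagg
Its GC content was 46%, and guanines exceeded cytosines with a GC skew of 0.46, the difference over the sum of both bases.

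NFKBIZ, another NF-κB regulator gene, had body folds of 7.61 and 12.85 (4.40, after 3.60 at 2 h), and the RNase gene ZC3H12C 6.56 and 16.08 at different summits (6.37, after 4.81). NT5E, which encodes the ecto-5′-nucleotidase CD73, had 9.21 and 17.90 (5.85) and had been higher in DMSO (4.69) and at 2 h (2.24). LSR, a tricellular junction gene, had 7.58 and 15.39 (5.84), and TIPARP, an immediate early gene with a promoter region in WT alone, 11.01 and 20.57 (5.40). Other gains were at LDHB (6.59), ENSG00000273269 (6.61), ANTXR2 (5.73) and EIF2B2 (5.71). ENSG00000273269 and ANTXR2 had different summits in the 2 lists. The LDHB value rests on the summit that is also the promoter summit of ENSG00000285854.

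Cytosolic ribosomal protein gene bodies stood higher in A3B KO as a group. Of 48 ranked, 34 were higher, with a median of 0.65, against 0.13 in DMSO and 0.02 at 2 h. By at least 1, 15 were higher and 5 lower, against 14% and 14% of all ranked bodies. RPL6 had body folds of 8.6 and 23.66 and ranks of 5509 and 34 (7.34), RPL24 5.31 and 13.05 (5.11) and RPLP0 6.55 and 12.48 (4.47). RPS23 was lower, with 40.89 and 16.50 (−3.03), as were RPL13A (21.60 and 13.75, −2.03) and RPL22 (23.60 and 14.26, −2.00). These genes have many processed pseudogenes, so reads may be split among copies.

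The largest body losses were at TNFRSF1B, the gene of TNF receptor 2, with folds of 18.61 and 4.08 (−7.14), EFCAB14 (15.87 and 4.41, −6.10) and the neural adhesion gene NTM (21.16 and 8.89, −5.70). NANS, a sialic acid synthesis gene, had 15.46 and 6.79 (−5.21) and had been lower in DMSO (−2.77) and at 2 h (−3.42). CALCOCO2 (−5.47), GAREM1 (−5.34), DTD1 (−5.28), BFSP2 (−5.22), UBQLN1 (−5.21) and APOH (−5.17) completed the 10. Except at BFSP2 and APOH, these losses compare different summits in the 2 lists. Those of TNFRSF1B lay at 7168 bp in WT and 34456 bp in A3B KO from the start. With regions that hold an Alu word removed from both lists and the rest ranked again, 1 of these 10 losses remained past 1, UBQLN1 at −5.39, and 9 fell below it, TNFRSF1B among them at 0.06. Of the 10 gains, 9 remained past 1 and NKD1 was no longer ranked. Ranked by regions per kb in place of the strongest summit, NKD1 was at 0.08, TNFAIP3 at −0.07 and TNFRSF1B at −1.14, the last being the 1 of the 20 named bodies that stayed past 1.

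Alu words moved with the direction of the promoter ratio too, a comparison chosen after the values were seen. Either summit held a word in 17.2% of the promoters higher in A3B KO (95% Wilson interval 14.6 to 20), in 28% of all ranked (26.9 to 29.1) and in 38.1% of those lower (34.6 to 41.6). At 2 h the shares were 16%, 25.8% and 32.5%, and in DMSO 15.1%, 19.5% and 18.2%. Of the 12 named losses 7 held a word at the WT summit (TIMP2, SSU72L4, ATP5F1A, CYP2F1, SPDYE13, ZNF121 and TM9SF2) and of the 12 named gains 0. Put the other way, the 1723 promoters with a word were higher by at least 1 in 7.43% and lower in 16.2%, and the 4437 without in 13.9% and 10.2%.

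Among regions with a fold of at least 10, words were more frequent at later times in both lines. The share was 17% in WT in DMSO, 34.8% at 2 h and 46.3% at 6 h (4406 of 9510 regions), and 16.8%, 35.8% and 38.4% in A3B KO (1722 of 4479). Regions of 1 library are not replicates, so no difference between the lines was tested. A fold of 10 also takes unlike parts of the 6 h lists, 9510 of 165877 regions in WT and 4479 of 169126 in A3B KO. Over all regions at 6 h the shares were 41.1% in WT and 39.1% in A3B KO. How reads with several genome matches were treated is not given in the sources used here, and the part of repeat mapping in these values was not tested. With regions that hold a word removed, 97676 WT and 102994 A3B KO regions remained, and 605 promoters stood higher and 597 lower of 4996. The immediate early median was then 1.02, with 20 of 27 members higher, and all 12 named promoter gains and the 6 named losses that were ranked again stayed past 1, AREG at −3.41 and CXCL1 at 3.08.

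**Figure D3:**
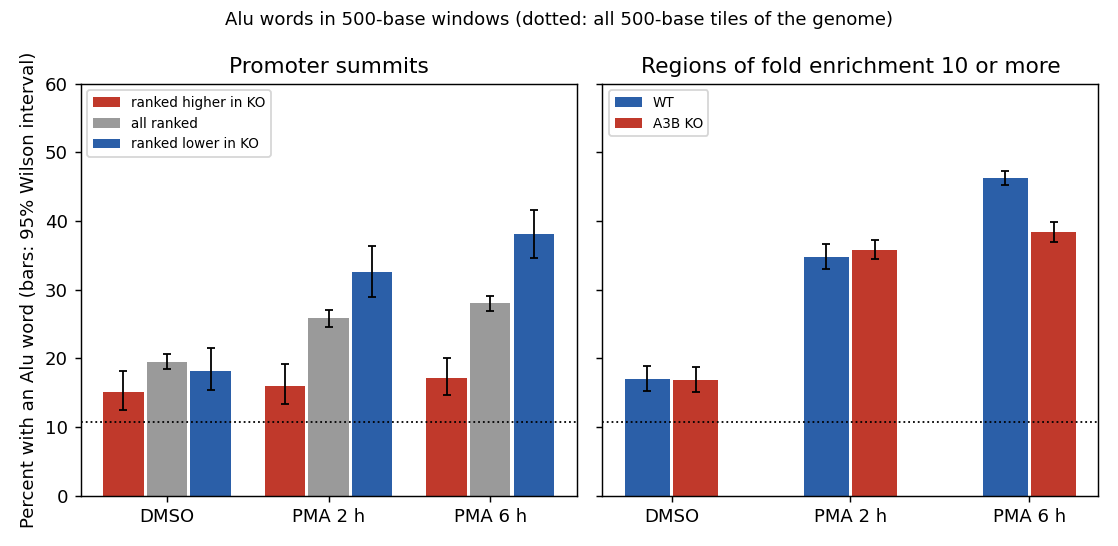
Percent of 500-base windows with an Alu word (y axis, starting at 0; error bars are 95% Wilson intervals, counting error only) at promoter summits ranked higher, at all and at those ranked lower in A3B KO (left), and in regions with a fold of at least 10 in WT and A3B KO (right), by treatment. The dotted line is the 10.7% of all genomic tiles; at 6 h the left bars stand at 17.2%, 28% and 38.1% and the right bars at 46.3% and 38.4%.

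Some promoters had a region in one list alone. In A3B KO the strongest were FXR1, a gene of an RNA-binding protein related to FMRP (fold 11.74), SRGAP3 with THUMPD3 at the same summit (11.19), BRI3 with TECPR1 (10.96), OR2AE1 (10.41), the tumor suppressor gene RB1 (10.09) and ZNF184 (9.80). RB1 was in both lists at 2 h, with 7.44 in WT and 7.45 in A3B KO. SRGAP3 was in WT alone in DMSO (5.41) and at 2 h (8.04), and OR2AE1 in WT alone in DMSO (7.18). ZNF184 was in A3B KO alone at 2 h (7.95). In WT they were SPDYE14 (14.18), JCAD (13.38), LIPT2 with POLD3 (13.33), the kinesin gene KIF18B (13), POTEE (12.26) and GRK5 (12.13). These 6 promoters were all in both lists at 2 h, at folds from 5.67 to 11, and KIF18B there stood higher in A3B KO (1.74). In DMSO SPDYE14 (5.07) and LIPT2 (6.97) were in A3B KO alone and KIF18B (7.94) in WT alone.

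The regions of all kinds were compared by overlap. Of the WT regions 112570 (67.9%, 95% Wilson interval 67.6 to 68.1) overlapped an A3B KO region by at least 1 bp, and of the A3B KO regions 108812 (64.3%, 64.1 to 64.6) overlapped a WT region. At 2 h the shares were 63.5% and 58.7%, and in DMSO 59.4% and 55.7%. Sharing was greater among stronger regions, from 56.6% in the lowest of 10 equal bins of WT regions by fold to 80.1% in the highest, and from 45.1% to 84.1% in A3B KO. The 60314 regions found in A3B KO alone had a median fold of 4.04 and the 53307 found in WT alone 4.90, and a fold of at least 10 was reached by 408 and 1565 of them. In the whole lists that fold was reached by 4479 of 169126 A3B KO regions and 9510 of 165877 WT regions. The median folds there were 4.64 in A3B KO and 5.26 in WT.

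The regions in 1 list alone were then followed back. Of those in A3B KO alone, 27.1% overlapped a 2 h region of A3B KO, against 53.6% of all A3B KO regions. No region of any earlier list was overlapped by 46.7% (46.3 to 47). A 2 h region of A3B KO and none of WT was overlapped by 15.5% (15.2 to 15.8), and the reverse held for 12.6% (12.4 to 12.9). Of those in WT alone 22.4% overlapped a 2 h region of WT, against 52.4% of all WT regions. The other shares were 51.3% (50.8 to 51.7), 12.5% (12.2 to 12.8) and 14.6% (14.3 to 14.9). These other shares were not taken over all regions of either list. Regions in A3B KO alone lay inside protein-coding genes in 56.9% (56.5 to 57.3) and regions in WT alone in 51.9% (51.5 to 52.3), and the GC content was 43.2% and 45.2%. Over all A3B KO and all WT regions the gene shares were 55.7% and 54%, and the GC content was 44.8% and 45.8%. An A3B-eGFP region from doxycycline with 2 h of PMA was overlapped by 2.12% of shared WT regions and by 0.949% of those in WT alone, and in A3B KO by 2.04% and 0.874%. For regions of the same line without doxycycline the shares were 1.37% and 0.927% in WT and 1.3% and 0.463% in A3B KO. TCA and TCT numbered 38 per 500 bases over both strands in WT alone and 39 in A3B KO alone, and 38 over all regions of either list.

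Counted by gene, 6803 protein-coding genes held more regions in A3B KO than in WT and 5547 held fewer, and 133 held at least 10 more and 72 at least 10 fewer. BCAR3, an adaptor gene of integrin and antiestrogen signaling, had 32 in the WT list against 55 in the A3B KO list. AKAP13, a scaffold gene of protein kinase A, held 55 and 77, and the cohesin genes PDS5A and STAG1 held 24 and 45, and 36 and 55. ARMH4 held 18 and 38, NBPF10 25 and 45, ZC3H12B 9 and 29, and the coactivator gene NCOA3 29 and 47. The largest losses were at C11orf65 (36 and 11), the neighbouring chromosome 19 zinc finger genes ZNF600 (31 and 6), ZNF28 (37 and 17) and ZNF83 (43 and 23), the coat protein gene SEC24B (54 and 30), EDA (37 and 14), the BMP receptor gene BMPR2 (51 and 30) and STAT3 (37 and 17). The other times did not always go the same way. STAT3 also held fewer in A3B KO in DMSO (28 and 10) and at 2 h (29 and 22), whereas in DMSO C11orf65 (5 and 21), EDA (5 and 15) and ZNF28 (12 and 25) held more, as did ZNF600 at 2 h (4 and 23).

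Agreement between the 3 pairs was low. Among the 3683 genes ranked at all times, the log2 rank ratio at 6 h had a Spearman correlation of −0.004 with that in DMSO and 0.087 with that at 2 h, with each pair made of separate libraries. Of 561 of these genes higher by at least 1 at 6 h, 47.2% had also been higher in DMSO, against 49.3% of all 3683, and 55.8% at 2 h, against 50%. Only 26 genes at 24 loci were higher by at least 1 at all 3 times, and 10 were lower.

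The genes with the most constant gains were led by IL1A (3.29 in DMSO, 2.72 at 2 h and 2.98 at 6 h) and CXCL1. They also included KHDRBS1, which encodes the RNA-binding protein SAM68 (2.14, 2.59 and 2.05), GSAP (2.94, 2.03 and 2.12), CSF3 (3.12, 1.66 and 2.48), ACTR3 and the genes ASPH (1.62, 1.72 and 1.74) and OTUD6B (1.68, 1.56 and 1.5). GSAP and ASPH had different summits in WT and A3B KO at 6 h. The constant losses were led by RPL22L1, a paralog of a ribosomal protein gene, with folds of 20.07 in WT and 11.92 in A3B KO at 6 h and ratios of −1.80, −2.62 and −2.17. Its window (chr3:170869804-170870103, minus strand) overlaps a coding exon, and TCA and TCT are in capitals.
RPL22L1: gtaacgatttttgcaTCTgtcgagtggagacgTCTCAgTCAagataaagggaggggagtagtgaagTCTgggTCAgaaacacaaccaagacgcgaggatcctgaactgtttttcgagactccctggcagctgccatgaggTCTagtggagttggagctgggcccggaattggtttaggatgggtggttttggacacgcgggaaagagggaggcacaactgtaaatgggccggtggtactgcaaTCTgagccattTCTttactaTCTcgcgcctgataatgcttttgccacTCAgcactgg
NELFCD, which encodes a subunit of the negative elongation factor that pauses RNA polymerase II, had folds of 10.88 and 4.85 at 6 h (−2.85, −1.78 and −2.80), at summits 901 bp and 1802 bp from the start. The phosphate carrier gene SLC25A3 (−1.57, −1.2 and −1.5), NEGR1 (−1.33, −3.80 and −2.31), ANTKMT (−1.28, −1.52 and −1.13), SSX4 (−1.27, −1.12 and −2.52), CT45A7 (−1.88, −2.62 and −1.23) and POM121C (−2.04, −1.17 and −1.35) were lower as well. CT45A7 and POM121C also had different summits in WT and A3B KO at 6 h.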

How the data were processed

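The 6 h PMA pair of MCF10A DRIP–seq samples (WT and A3B KO), with the DMSO and PMA 2 h pairs and the A3B-eGFP ChIP–seq lists beside them, was read from 9 deposited peak lists; the 9 input samples were not used on their own. Groups were taken from the sample labels. Per the methods and processing notes, the authors trimmed reads with cutadapt 1.13, aligned them to hg38 with STAR 2.6.1d, used SAMtools 1.3.1 to keep proper pairs and Picard to drop duplicates, excluded regions with bedtools 2.29.2, and called summits with MACS2 (2.2.6 in the processing notes, another version in the methods) against each input. Each deposited entry is 500 bp long and holds the pileup (the signal in fragments; whether it was scaled is not given), the −log10 q value and, as a ratio to local background, the fold enrichment, all computed by the authors. Whether starts count from 0 or 1 is not given in the sources used here, nor is the number of reads.

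From these, regions on chromosomes 1 to 22 and X were kept (4 WT and 5 A3B KO mitochondrial regions were dropped), genes were taken from GENCODE 44, and ranks were set within each list over genes with a summit in both. Shares have 95% Wilson intervals. There is 1 library per condition, so no test was made. The members and the 35 gene lists (with 2 more, olfactory receptor and chromosome 19 zinc finger genes, made from symbols) were chosen with earlier results of these data known. Named genes are the 12 largest gains and losses in promoter rank among genes that reach rank 2000 in WT or A3B KO, the 10 largest each way for gene bodies, the 6 strongest promoters of 1 list alone, the 8 largest differences in region number each way, up to 8 genes each way that changed by at least 1 in the same direction at all times, up to 5 members of each list with the largest changes, the genes with a DRIP primer and the APOBEC3 genes; other list members are named beside their group. The alternatives were ranks by pileup, by −log10 q or by regions per kb, a 1 kb window, a −log10 q of at least 5, equal list lengths and an overlap of 250 bp. After the data had been seen, lists without Alu-word regions and promoters with summits within 250 bp were added. The ranking steps were tested on simulated lists. Scripts ran in Python 3.11.15 with pandas 2.3.3, numpy 2.4.6, pysam 0.24.0, scipy 1.17.1 and, for plots, matplotlib 3.10.9. Some sequences and 1 gene of a list are not reported here.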

Additional observations from a re-analysis of the deposited data

Results flagged for a closer look

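The following results had a direction at 6 h opposite to that in both DMSO and PMA 2 h. Each time has 1 library per line, so none of these differences was tested. Replication-dependent core histone promoters had a median log2 rank ratio of 0.33 at 6 h, after −0.69 and −0.71, but 0.07 at 6 h when ranked by pileup. H2BC12, which shares its summit with H2AC12, had 1.43 at 6 h (ranks of 3036 in WT and 1130 in A3B KO), after −2.68 and −2.15. The EGFR promoter had −1.79 (1013 and 3495), after 1.70 and 2.30. MRPL33 had −3.56 (185 and 2178), after 2.38 and 1.33. SPRY2, a feedback inhibitor gene of receptor tyrosine kinases, had 1.47 (744 and 268), after −1.06 and −2.43. These are 4 of 346 promoters checked among the named genes and lists, and 18 of all 3683 promoters ranked at every time had such a pattern, with a ratio past 1 each time.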

How the results depend on the processing

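No paired analysis was possible because each line had 1 library per time and the labels give no replicate numbers. For the same reason no library could be left out, and the unknown read depth limits what a difference in fold or list length shows. Promoters within 1 kb gave 469 higher and 434 lower, and regions per kb gave 780 gene bodies higher and 776 lower, with fewer promoters ranked in the former; for the latter the cause was not tested. The shared percentage of WT regions was 60.9 with 250 bp of overlap, 65.4 at a −log10 q of at least 5, 67.3 at equal list lengths and 62.3 without Alu-word regions, and that of A3B KO regions 58.9, 64.1, 64.9 and 57.9. Without Alu-word regions 16.7% of the ranked R-loop regulator promoters were higher in A3B KO (42.9% with them; the cause was not tested). Under the other alternatives that group ranged from 33.3% to 50%. Immediate early promoters had 63.6% to 80.8% of members higher under the alternatives tried, with medians from 0.38 to 1.11, chemokine and cytokine promoters 58.3% to 75%, and cytosolic ribosomal protein bodies 66.7% to 79.2% (regions per kb not run for lists). Of 247 values for single named genes under an alternative, 216 kept their direction and stayed past 1, 18 kept it and fell below 1, and 13 turned. CLINT1 was 0.73 within 1 kb. By regions per kb 1 of the 20 named gene bodies stayed past 1, TNFRSF1B at −1.14, 13 fell below it, NKD1 to 0.08 among them, and 6 turned. In that setting RPL6 was −0.11, ENSG00000273269 −0.06, LDHB −0.05, TNFAIP3 −0.07, UBQLN1 0.41 and APOH 0.78. Without Alu-word regions the bodies of TNFRSF1B were 0.06, CALCOCO2 0.45, GAREM1 0.69, DTD1 0.52, NANS 0.39 and APOH 0.33.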

Other observations

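Chromosome 19 had the lowest ratio of regions in A3B KO to WT at 6 h. The WT list had 10911 regions there and the A3B KO list 9821, a log2 ratio of its shares of the 2 lists of −0.18, against −0.09 to 0.07 for every other chromosome. The 249 zinc finger genes of this chromosome had 1205 regions in the WT list and 1066 in the A3B KO list at 6 h, but 592 and 649 in DMSO and 698 and 778 at 2 h. At 6 h 86 of these genes had more regions in A3B KO and 86 fewer, and the neighbours ZNF600, ZNF28 and ZNF83 differed by −25, −20 and −20. In DMSO the log2 ratio of chromosome 19 was −0.14 and at 2 h 0.01.

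Position within the promoter went with the direction of change. The strongest A3B KO summit lay downstream of the start in 62.1% of the promoters higher in A3B KO, 56.4% of all ranked and 52.8% of those lower, and in 92.9% of the 28 immediate early genes. The median GC content of the windows was 56.6%, 53.2% and 51.5% over the same classes, and 64.2% for immediate early genes.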
